A study of Mus musculus with 4 samples.

Results

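The integrated stress response was examined through 10 genes in hair cells of the mouse cochlea: Atf4, Nupr1, Ddit3, Trib3, Atf5, Asns, Chac1, Sesn2, Ddit4 and Cebpb. They were taken by symbol, and all 10 had a row among the 23996 rows with a gene. The set was chosen by its FPKM values in new and original hair cells, which were already known, so those values are given as a description with no test. The study compared hair cells newly induced by Atoh1 with hair cells of normal development, with 2 libraries in each group.

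New hair cells came from mice carrying Sox2-CreER, Atoh1-HA, Atoh1-eGFP and a Cre-dependent tdTomato, and were sorted as cells with both eGFP and tdTomato. Tamoxifen at 0.20 mg per g of body weight was injected at postnatal day 3, and cells were taken at postnatal day 7. Original hair cells were sorted as cells with eGFP alone at postnatal day 7, from mice with the same 4 alleles on a C57BL/6 background. The labels do not say whether the original hair cells came from tamoxifen-injected or corn oil-injected mice, nor whether libraries were from separate animals or pools. Sox2-CreER acts in supporting cells, which surround hair cells, so tdTomato marks their descendants where recombination occurred. Both sorts used an Atoh1 reporter.

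The deposited table held 1 FPKM value (fragments assigned to a gene, scaled by its transcript length and by the number of mapped fragments) per gene and group. No difference below could therefore be set against the spread between libraries, and the depth per library is unknown. FPKM summed to 244225 in new and 2165833 in original hair cells, an 8.87-fold difference. Levels are given as FPKM and, where stated, as a share of the group's own FPKM sum, in parts per 1000000, which removes that difference. Of the 15 hair cell markers examined none was at 0 in either group, and 12 were at least 2-fold lower in new hair cells, where 34.9% of all tested genes were. Taken as shares of the FPKM sum, 11 of the 15 were lower and 4 higher, where 2015 of the 9026 tested genes were lower and 7011 higher. Pou4f3, a transcription factor of hair cells and not among those 12, stood at 16.1 FPKM in new and 16.7 FPKM in original hair cells. Its share was 66.0 parts per 1000000 in new and 7.72 in original hair cells. Atoh1 stood at 83.4 FPKM in new and 791 FPKM in original hair cells, with shares of 341 and 365 parts per 1000000. Transgene and endogenous Atoh1 transcripts were not separated.

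In the integrated stress response, kinases that sense amino acid shortage, endoplasmic reticulum stress, haem shortage or double-stranded RNA phosphorylate the translation factor eIF2. General translation then slows, while the mRNA of the transcription factor ATF4 is translated more efficiently because of upstream reading frames. ATF4 and its partners of the C/EBP family bind composite elements, called CARE, in genes for amino acid supply, redox balance and cell death. Much of the control of ATF4 itself is translational, so its mRNA level is not a measure of its protein. NUPR1 is a small nuclear protein whose gene is induced by many kinds of cell stress. In hair cells, stress of the endoplasmic reticulum has been studied as a route to hearing loss.

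The letters of the CARE, TGATGNAA on either strand, occurred in the RefSeq promoter window of 4 of the 10 genes, Nupr1, Chac1, Trib3 and Asns. Each window (build GRCm38.p6) ran from 250 bases before to 50 bases after the transcription start. The matched stretches are shown because they are what these 4 genes share in sequence, 5′ to 3′ on the strand of the gene, with the 8 matched letters in capitals.
Nupr1: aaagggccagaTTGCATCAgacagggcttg
Chac1: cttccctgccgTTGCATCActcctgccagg
Trib3: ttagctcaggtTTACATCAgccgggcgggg
Asns: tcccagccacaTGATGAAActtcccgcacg

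The stretch of Nupr1 lies at chr7:126625562-126625591 (minus strand) and that of Chac1 at chr2:119351038-119351067 (plus strand). The stretch of Trib3 lies at chr2:152344028-152344057 (minus strand) and that of Asns at chr6:7693214-7693243 (minus strand). The match began 110 bases before the start in Nupr1, 193 bases before it in Chac1 and 23 bases before it in Asns. In Trib3 it began at base 15 of the transcript. Nupr1 and Chac1 carried the same 8 letters, TGATGCAA, on the strand opposite to the gene, while Asns matched on the gene's own strand.

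The letters were present in 4.51% of the 27025 genes with a promoter window, and in 2.40% of the 7280 tested genes that had one. Among the lists below, 5 of 13 cytosolic aminoacyl-tRNA synthetase genes with a window (38.5%) had them. Amino acid transporter targets had them in 2 of 8, and the eIF2 kinases and phosphatase regulators in 0 of 8. The letters are thus not particular to these 10 genes. The cAMP response element, TGACGTCA on either strand, occurred in none of the 10 genes and in 2.03% of all genes with a window. These are matches of letters in a short window and say nothing about binding. As deposited, 3 of the 4 genes with the CARE letters were lower in new hair cells, as were 4937 of the 9026 tested genes. Trib3 was listed at 0 in both groups, and Chac1 was under 1 FPKM in both. Whether the letters go with the levels was not tested. New hair cells had 1.68 FPKM of Nupr1 and 0.0175 FPKM of Chac1, against 4825 and 0.605 FPKM in original hair cells. Asns stood at 10.9 FPKM in new and 13.6 FPKM in original hair cells. As a share of the FPKM sum it was higher in new hair cells, as were 7011 of the 9026 tested genes.

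The 250 bases before the start of Nupr1, the gene with the largest difference of the 10, are given with the match in capitals (chr7:126625471-126625720, minus strand).
Nupr1 upstream: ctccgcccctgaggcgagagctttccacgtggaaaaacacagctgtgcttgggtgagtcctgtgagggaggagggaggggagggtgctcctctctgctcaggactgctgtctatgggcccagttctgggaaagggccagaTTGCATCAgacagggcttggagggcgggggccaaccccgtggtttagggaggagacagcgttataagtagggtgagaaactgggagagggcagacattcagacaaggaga

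**Figure D1:**
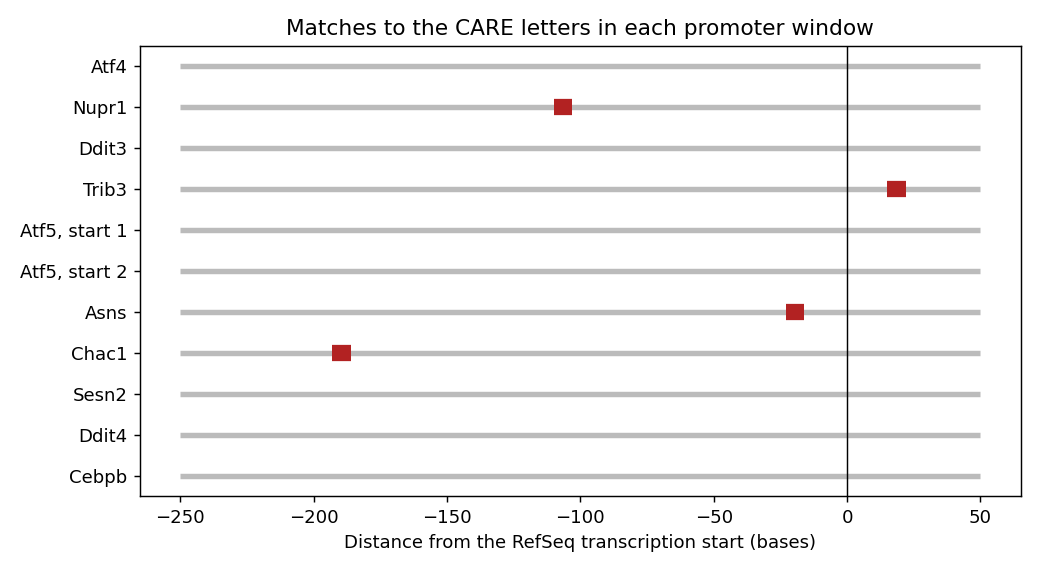
Matches to the CARE letters on either strand (red) in the RefSeq promoter windows (grey) of the 10 genes, by distance from the transcription start in bases. Nupr1, Chac1 and Asns have their match before the start, Trib3 has it after the start, and Atf5 has windows at 2 starts, neither with a match.

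Atf4, the effector transcription factor of the pathway (chromosome 15, 80255184 to 80257545, mm10), stood at 125 FPKM in new hair cells and 1819 FPKM in original hair cells. That was 14.6-fold lower in new hair cells as deposited. Within its own group it was near the top in both, at percentile 97.7 of the genes above 0 FPKM in new and 98.3 in original hair cells. In rank from the top it was gene 369 in new and gene 266 in original hair cells. As a share of the group's FPKM sum it stood at 510 parts per 1000000 in new and 840 in original hair cells, 1.65-fold lower. Atf4 was thus lower on each of these scales, by an amount that the scale sets.

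Nupr1 (chromosome 7, 126623246 to 126625470) stood at 1.68 FPKM in new hair cells and 4825 FPKM in original hair cells, 2878-fold lower. Among the 9026 tested genes (at least 1 FPKM in 1 of the groups and above 0 in both) only 2 had a more negative difference in log2(FPKM + 1). It was gene 6507 from the top in new and gene 94 in original hair cells. As a share of the FPKM sum it stood at 6.86 parts per 1000000 in new and 2228 in original hair cells, 325-fold lower. In original hair cells Nupr1 was therefore higher than Atf4, at 265% of the Atf4 level, and in new hair cells it was at 1.35% of it. Unlike Atf4, Nupr1 held a different place within each group, percentile 60.2 in new and 99.4 in original hair cells.

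**Figure D2:**
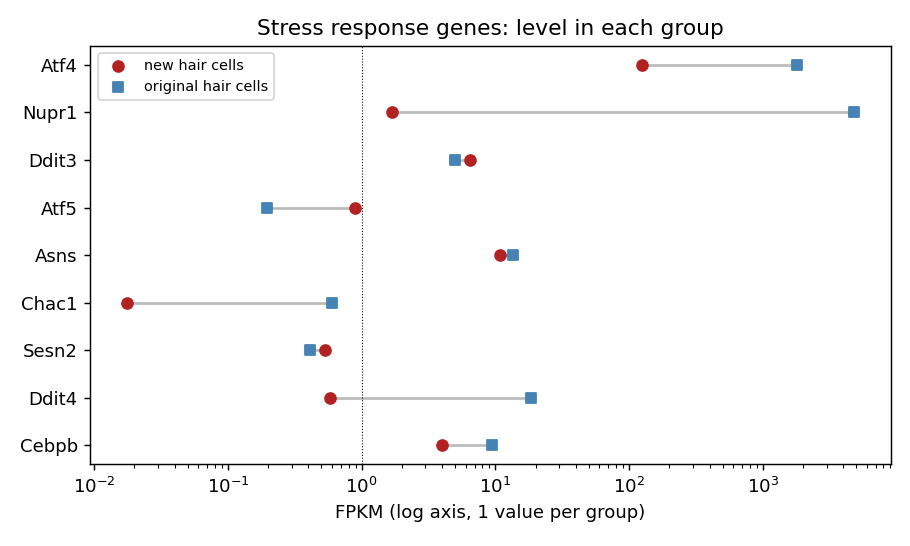
FPKM (log axis) of 9 of the 10 genes in new (red circles) and original hair cells (blue squares), 1 value per group, with a dotted line at 1 FPKM. Nupr1 shows the widest gap, 1.68 FPKM in new and 4825 FPKM in original hair cells, while the points of Ddit3, Asns and Sesn2 lie close together. Trib3, listed at 0 in both groups, is not drawn.

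The other transcription factors were far less abundant than Atf4. Ddit3, which encodes CHOP, the factor linked to stress-induced cell death, stood at 6.43 FPKM in new and 4.98 FPKM in original hair cells. It was 1.29-fold higher as deposited and 11.5-fold higher as a share of the FPKM sum. Cebpb, a C/EBP factor that can pair with ATF4, stood at 3.97 FPKM in new and 9.46 FPKM in original hair cells. That was 2.38-fold lower as deposited, but 3.72-fold higher as a share of the FPKM sum. On that share scale 7011 of the 9026 tested genes were higher in new hair cells, and Gapdh was 6.14-fold higher. With equal FPKM sums the median of all tested genes was 2.53 log2 units higher. Atf5, a relative of ATF4 under like translational control, stood at 0.888 FPKM in new and 0.196 FPKM in original hair cells, under 1 FPKM in both. Relative to Atf4 in the same group, Ddit3 was at 5.16% in new and 0.274% in original hair cells, a ratio that no scaling by a single factor per group can change.

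Ddit3 and Atf5 carry a further uncertainty. In the deposited table the locus of Ddit3 (chromosome 10, 127290793 to 127311786) is shared with Mars, a methionyl-tRNA synthetase gene, at 2.04 FPKM in new and 2.96 FPKM in original hair cells. The locus of Atf5 (chromosome 7, 44812256 to 44849079) is shared with Il4i1, Nup62, Nup62-il4i1 and Tbc1d17. Of these, Nup62 stood at 7.55 FPKM in new and 1.88 FPKM in original hair cells, and Tbc1d17 at 5.07 FPKM in new and 50.9 FPKM in original hair cells. Whether reads were divided between such genes was not tested.

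Of the enzymes, Asns, which makes asparagine and is a classical ATF4 target (chromosome 6, 7675171 to 7693182), stood at 10.9 FPKM in new and 13.6 FPKM in original hair cells, 1.25-fold lower. As a share of the FPKM sum it was 44.6 parts per 1000000 in new and 6.26 in original hair cells, 7.12-fold higher. Most tested genes (7011 of 9026) were higher in new hair cells on that scale. The percentile of Asns within the group was 85.5 in new and 79.8 in original hair cells. Chac1, which degrades glutathione, stood at 0.0175 FPKM in new and 0.605 FPKM in original hair cells. Both values are under 1 FPKM, where the precision is unknown. Asns was the only one of the pair at a level of several FPKM.

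The inhibitors of growth signalling differed from each other. Ddit4, also called REDD1, which restrains the growth kinase complex mTORC1 (chromosome 10, 59949675 to 59951770), stood at 0.582 FPKM in new and 18.6 FPKM in original hair cells, 31.9-fold lower. As a share of the FPKM sum it was 2.38 parts per 1000000 in new and 8.57 in original hair cells, 3.60-fold lower. Its percentile was 44.3 in new and 82.0 in original hair cells. Sesn2, another stress-induced inhibitor of mTORC1, stood at 0.528 FPKM in new and 0.412 FPKM in original hair cells. Trib3, a pseudokinase that binds ATF4 and AKT and is induced by CHOP and ATF4, was listed at 0 in both groups.

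**Figure D3:**
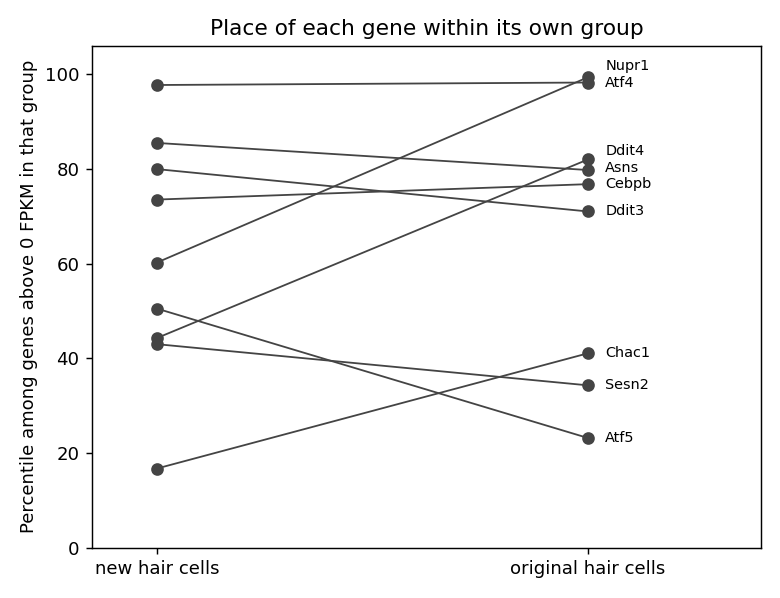
Percentile of each gene among the genes above 0 FPKM in the same group, new hair cells on the left and original hair cells on the right, with lines joining the same gene. Atf4 stays near the top, at 97.7 in new and 98.3 in original hair cells, whereas Nupr1 and Ddit4 stand much lower in new hair cells, at 60.2 and 44.3.

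Of the 10 genes, 6 reached 1 FPKM in at least 1 group, 3 were above 0 but under 1 FPKM in both (Atf5, Chac1, Sesn2) and Trib3 was at 0. On the log2(FPKM + 1) scale 4 of the 6, Atf4, Nupr1, Ddit4 and Cebpb, were at least 2-fold lower in new hair cells, where 34.9% of all tested genes were. None of the 6 was at least 2-fold higher, where 19.9% of all tested genes were. The choice of the genes used this contrast, so these counts describe the set only. The unadjusted p that the authors' deposited table gives was 0.0363 for Nupr1, 0.0501 for Ddit4, 0.169 for Atf4, 0.472 for Cebpb, 0.850 for Asns and 0.902 for Ddit3. Nupr1 was thus the 1 gene of the set with a p under 0.05 in the authors' deposited table, where 9.38% of all tested genes had one, 8.83% lower and 0.554% higher in new hair cells. Adjusted over all tested genes by the Benjamini-Hochberg method, the smallest p of the authors' deposited table became 0.526.

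Directions of the middle-sized differences followed the scale. As deposited, new hair cells had less of 6 of the 9 genes above 0 and more of 3. As a share of the FPKM sum, they had less of 4 and more of 5. Of the 9026 tested genes, 4937 were lower and 4089 higher as deposited. As shares, 2015 of them were lower and 7011 higher. Asns and Cebpb changed direction between these scales. Atf4, Nupr1, Ddit4 and Chac1 were lower on both, and Ddit3, Atf5 and Sesn2 were higher on both. The median of all tested genes was -0.21 (log2 units) as deposited and 2.53 with equal FPKM sums. The difference of Nupr1 was -10.82 as deposited and -8.25 with equal FPKM sums.

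**Figure D4:**
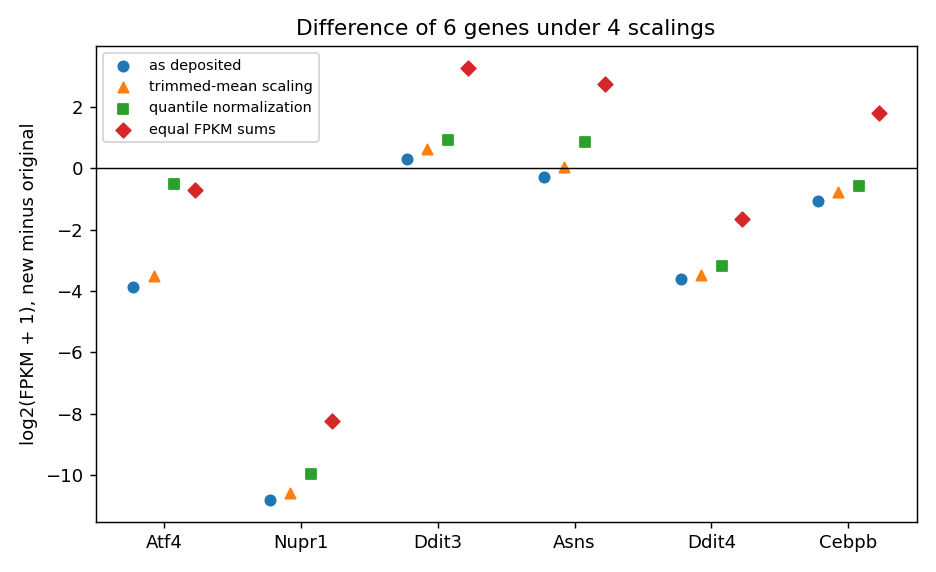
Difference in log2(FPKM + 1), new minus original hair cells, of the 6 genes that reached 1 FPKM in either group, as deposited and under 3 other scalings of both groups. Nupr1 and Ddit4 lie below -1 under all 4, Atf4 lies between -0.72 and 0 with equal FPKM sums or quantile normalization, and Ddit3 lies above 0 under all 4.

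The sum over the 10 genes was 149 FPKM in new and 6692 FPKM in original hair cells. Its makeup differed. Nupr1 made up 1.12% of that sum in new and 72.1% in original hair cells. Atf4 made up 83.3% in new and 27.2% in original hair cells. In each group, a single gene thus supplied most of the mRNA measured for the set.

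The upstream sensors had levels of a few FPKM or less in both groups. Of the 4 eIF2 kinases, Eif2ak1 (HRI, which senses haem and relays mitochondrial stress) stood at 3.76 FPKM in new and 0.720 FPKM in original hair cells. Eif2ak4 (GCN2, the sensor of amino acid shortage) stood at 1.43 and Eif2ak2 (PKR, the sensor of double-stranded RNA) at 0.803 FPKM in new hair cells, against 0.894 and 0.594 FPKM in original hair cells. Eif2ak3 (PERK, the kinase of endoplasmic reticulum stress) stood at 0.388 FPKM in new and 1.20 FPKM in original hair cells. Eif2s1, the subunit they phosphorylate, was 7.50 FPKM in new and 7.30 FPKM in original hair cells. The levels of the kinases give no measure of their activity.

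The regulators that reverse the phosphorylation went apart in size. Ppp1r15a (GADD34, the stress-induced subunit of the eIF2 phosphatase) stood at 8.98 FPKM in new and 14.8 FPKM in original hair cells. Ppp1r15b (CReP, its constitutive counterpart) stood at 0.675 FPKM in new and 10.1 FPKM in original hair cells, 14.9-fold lower. Impact, which inhibits GCN2, went the other way, with 4.75 FPKM in new and 0.864 FPKM in original hair cells. In the whole list of kinases and phosphatase regulators, 2 of 9 tested genes were at least 2-fold higher and 2 lower, against 19.9% and 34.9% of all tested genes, with a median difference of -0.66. That median and those of the lists below are on the deposited scale, and other scalings shift all genes and these medians with them. With equal FPKM sums the medians of 8 of the 9 lists below 0 turned above it, where the median of all tested genes was 2.53. With quantile normalization 5 of the 9 did, where it was 0.28. The gene of highest level in that list was Dnajc3, a co-chaperone that inhibits PERK and PKR, at 10.5 FPKM in new and 25.0 FPKM in original hair cells. The 11 subunits and relatives of eIF2 and its exchange factor eIF2B had a median difference of 0.04, with 2 genes at least 2-fold higher and 2 lower. Eif2b4, a subunit of eIF2B, had the most negative difference, at 17.0 FPKM in new and 323 FPKM in original hair cells. Its locus is shared with another row of the table, as are those of Eif2ak1 and of Syvn1 below, so that reads may be divided between genes there. Eif2s2, the beta subunit of eIF2, had the most positive one, at 39.3 FPKM in new and 16.1 FPKM in original hair cells. Eif2s3x, a gamma subunit gene, stood at 14.0 FPKM in new and 46.4 FPKM in original hair cells.

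Amino acid transporters among the known ATF4 targets showed some of the widest gaps. Of 8 tested genes 5 were at least 2-fold lower in new hair cells and none was higher, against 34.9% and 19.9% of all tested genes, with a median difference of -1.95. That median was -0.56 without a filter, -5.20 with a minimum of 5 FPKM, -3.16 with a pseudocount of 0.1 and -0.33 with equal FPKM sums. Slc7a1, a carrier of cationic amino acids, stood at 0.574 FPKM in new and 246 FPKM in original hair cells. Slc3a2, the heavy chain shared by several amino acid exchangers, stood at 6.32 FPKM in new and 876 FPKM in original hair cells. Both had a small unadjusted p in the authors' deposited table, 0.00035 for Slc7a1 and 0.0011 for Slc3a2, against 8.83% of all tested genes with a p under 0.05 and a lower level in new hair cells. Slc1a5, a glutamine carrier, had the most positive difference of the list, at 1.23 FPKM in new and 0.587 FPKM in original hair cells. Slc7a11, the cystine carrier, was under 1 FPKM in both groups, at 0.307 FPKM in new and 0.230 FPKM in original hair cells.

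Genes of amino acid synthesis were lower in new hair cells at the top of the list. Phgdh, the first enzyme of serine synthesis, stood at 16.9 FPKM in new and 378 FPKM in original hair cells. Psat1, the second enzyme, stood at 56.2 FPKM in new and 156 FPKM in original hair cells, lower as deposited but higher with quantile normalization and equal FPKM sums. Psph, the last enzyme of that path and named after its values were seen, stood at 10.5 FPKM in new and 103 FPKM in original hair cells. Of 8 tested genes 4 were at least 2-fold lower and 1 was higher, where 34.9% and 19.9% of all tested genes were, with a median of -0.98. It was -0.13 without a filter or with quantile normalization, -1.66 with a minimum of 5 FPKM and 1.83 with equal sums. The higher one was Got1, an aspartate aminotransferase, at 8.07 FPKM in new and 3.02 FPKM in original hair cells.

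Cytosolic aminoacyl-tRNA synthetases, many of them ATF4 targets, held a few genes with wide gaps and many without. Of 20 tested genes 8 (40%) were at least 2-fold lower and 2 (10%) higher, near the 34.9% and 19.9% of all tested genes, with a median of -0.37 as deposited and 2.24 with equal sums. Aars, the alanyl-tRNA synthetase, stood at 14.1 FPKM in new and 264 FPKM in original hair cells. Rars, the arginyl-tRNA synthetase, stood at 2.34 and Vars, the valyl-tRNA synthetase, at 2.85 FPKM in new hair cells, against 168 and 174 FPKM in original hair cells. Kars, the lysyl-tRNA synthetase, went the other way, with 35.5 FPKM in new and 8.41 FPKM in original hair cells. For 3 of the 20 the authors' deposited table gives a p under 0.05, and each of these 3 was lower in new hair cells. Of all tested genes 9.38% had such a p, 8.83% lower and 0.554% higher in new hair cells.

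Partners of ATF4 in the bZIP family included Atf3, a further stress-induced factor, at 0.537 FPKM in new and 2.52 FPKM in original hair cells. Cebpg, a C/EBP partner of ATF4, stood at 1.46 FPKM in new and 0.569 FPKM in original hair cells. Of 17 tested genes 3 were at least 2-fold higher and 7 lower, against 19.9% and 34.9% of all tested genes. The median was -0.21, as for all tested genes, and -2.31 with a minimum of 5 FPKM. Jun, a subunit of the factor AP-1, stood at 38.4 FPKM in new and 174 FPKM in original hair cells. Nfe2l1, a regulator of proteasome genes, had the most negative difference, with 10.5 FPKM in new and 365 FPKM in original hair cells.

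The secreted stress signals were low in both groups. Gdf15 stood at 0.0747 FPKM in new and 0.00376 FPKM in original hair cells. Fgf21, a hormone induced by ATF4 in liver and muscle, stood at 0.595 FPKM in new and 0.180 FPKM in original hair cells. Among the other stress and autophagy targets 3 of 20 tested genes (15%) were at least 2-fold higher and 6 (30%) lower, near the 19.9% and 34.9% of all tested genes, with a median of -0.18 as deposited and 2.58 with equal sums. Vldlr, a lipoprotein receptor, had the most negative difference, at 0.252 FPKM in new and 14.0 FPKM in original hair cells. The CARE letters were in 2 of the 19 genes of this list with a promoter window, Vldlr and Fgf21. Of these, Fgf21 was higher in new hair cells. Xpot, the exporter of tRNA from the nucleus, had the most positive difference, at 3.81 FPKM in new and 0.671 FPKM in original hair cells. Map1lc3b, which encodes the autophagosome protein LC3B, stood at 98.8 FPKM in new and 212 FPKM in original hair cells. Sqstm1, which encodes the autophagy receptor p62, stood at 30.8 FPKM in new and 253 FPKM in original hair cells.

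The other arms of the endoplasmic reticulum stress response were mixed. Hspa5, which encodes the chaperone BiP, stood at 120 FPKM in new and 115 FPKM in original hair cells. Xbp1, the target of IRE1, stood at 4.31 FPKM in new and 4.98 FPKM in original hair cells, and its spliced form was not separated. Of 25 tested genes 3 (12%) were at least 2-fold higher and 10 (40%) lower, against 19.9% and 34.9% of all tested genes. The median was -0.51 as deposited, 0.76 with quantile normalization and 2.63 with equal sums. The genes of highest mean over both groups were Sec61b, a subunit of the protein channel of the reticulum, and Vimp, a membrane selenoprotein. In new hair cells alone Hspa5 and several other genes of the list stood above Vimp. Sec61b stood at 421 FPKM in new and 5322 FPKM in original hair cells, and Vimp at 63.7 FPKM in new and 2421 FPKM in original hair cells. Syvn1, a ubiquitin ligase of the reticulum, had the most negative difference, with 1.22 FPKM in new and 184 FPKM in original hair cells. Wfs1, a reticulum membrane protein, had the most positive one, with 7.46 FPKM in new and 0.854 FPKM in original hair cells.

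Genes of the mitochondrial stress relay were at least 2-fold lower in 6 of 12 cases and higher in 1, against 34.9% and 19.9% of all tested genes. The median was -1.26 as deposited, -0.11 with quantile normalization, -2.56 with a minimum of 5 FPKM and 1.76 with equal sums. Without rows that share a locus it was -0.71. Tfam, the packaging factor of mitochondrial DNA, stood at 1.30 FPKM in new and 128 FPKM in original hair cells. Lonp1, a protease of the mitochondrial matrix, was the higher one, with 18.3 FPKM in new and 2.88 FPKM in original hair cells. Hspe1, a mitochondrial chaperonin, stood at 210 FPKM in new and 2284 FPKM in original hair cells, and Clpp, a matrix protease, at 56.7 FPKM in new and 649 FPKM in original hair cells. Among relatives and partners of Nupr1, 1 of 4 tested genes was at least 2-fold higher and 2 were lower, too few to set against the share of all tested genes. Their median was -0.54 as deposited, 0.98 with quantile normalization and 0.56 without rows that share a locus. Nupr1l, the paralogue of Nupr1, stood at 14.5 FPKM in new and 5.52 FPKM in original hair cells, opposite in direction to Nupr1. Ptma, which encodes prothymosin alpha, a binding partner of NUPR1, stood at 207 FPKM in new and 1990 FPKM in original hair cells. Trp53, another partner, stood at 14.8 FPKM in new and 9.67 FPKM in original hair cells. For comparison Gapdh, a glycolytic enzyme, stood at 394 FPKM in new and 568 FPKM in original hair cells. Over all 10 lists together 18 of 129 tested genes (14.0%) were at least 2-fold higher and 51 (39.5%) lower, near the 19.9% and 34.9% of all tested genes, with a median of -0.49.

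**Figure D5:**
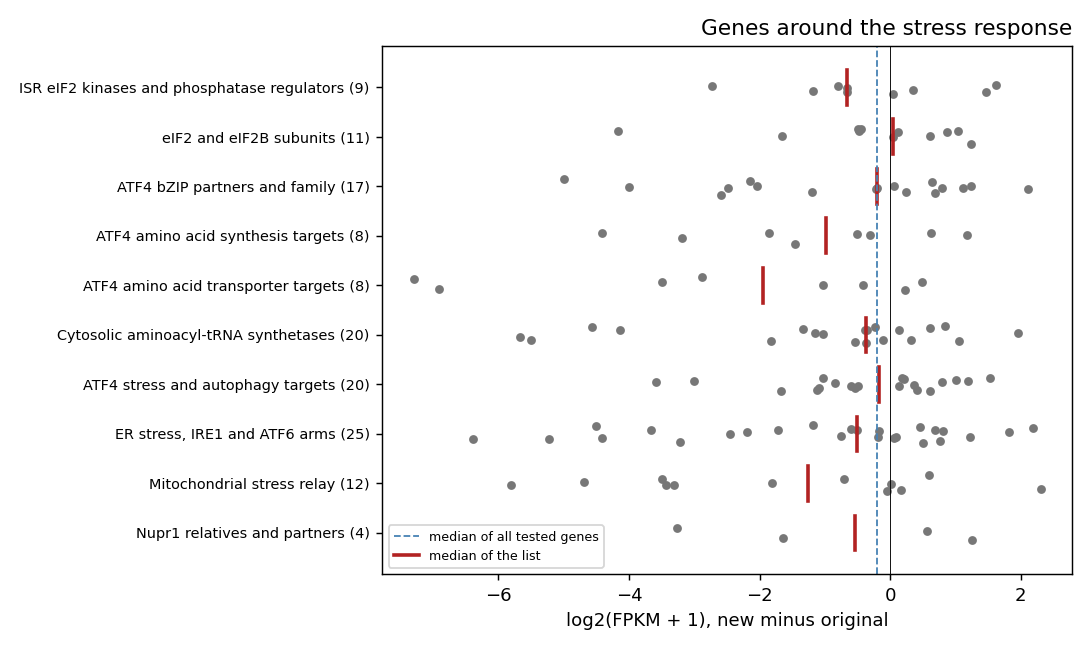
Difference in log2(FPKM + 1), new minus original hair cells, of each tested gene (grey points) in 10 lists around the integrated stress response, with the number of tested genes in brackets. The median of the amino acid transporter list (red bar) lies at -1.95 and that of all tested genes (dashed line) at -0.21.

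Markers of other cells differed between the groups beside these genes, and the direction of some of their sums depended on the scale. For each count of tested members at least 2-fold higher and lower below, the shares of all tested genes as deposited were 19.9% and 34.9%. By any amount, 4089 of the 9026 tested genes were higher and 4937 lower as deposited. As shares of the FPKM sum, 7011 were higher and 2015 lower. No list of markers was tested against these values. The 18 supporting cell markers summed to 5203 FPKM in new and 20895 FPKM in original hair cells, with 7 of 16 tested members at least 2-fold higher and 6 lower, and Tectb at 0 in both. Their share of the FPKM sum was 21304 parts per 1000000 in new and 9647 in original hair cells. The 11 mesenchyme markers summed to 415 FPKM in new and 2144 FPKM in original hair cells, with 1 of 9 higher and 6 lower and none at 0. Their share was 1698 parts per 1000000 in new and 990.1 in original hair cells. Taken singly, 3 of the 11 shares were higher and 8 lower, so the summed share does not describe most of these markers. The 11 spiral ganglion neuron markers summed to 241 FPKM in new and 13073 FPKM in original hair cells, with none of 7 higher and 5 lower, Neurod1 at 0 in both and Prph at 0 in new hair cells. The share of these neuron markers was 986 parts per 1000000 in new and 6036 in original hair cells. Taken singly, 6 of the 11 shares were higher and 4 lower. Pvalb, also counted among the hair cell markers, stood at 123 FPKM in new and 9074 FPKM in original hair cells. Its own share was 505 parts per 1000000 in new and 4190 in original hair cells. The neuron sums therefore do not separate neurons from hair cells. The 9 Schwann cell and glia markers summed to 392 FPKM in new and 1089 FPKM in original hair cells, with 4 of 7 higher and 3 lower and none at 0. Of the FPKM sum they made up 1603 parts per 1000000 in new and 503 in original hair cells. The 10 macrophage and immune markers summed to 102 FPKM in new and 8.21 FPKM in original hair cells. Of 4 tested members 2 were at least 2-fold higher and 1 lower, with Ptprc at 0 in both and Aif1 at 0 in new hair cells. By any amount, 3 of the 10 were higher and 6 lower as deposited, and 7 higher and 2 lower as shares. Their shares summed to 418 parts per 1000000 in new and 3.79 in original hair cells. Endothelial and blood markers summed to under 1 FPKM in each group. Immediate early genes of tissue dissociation summed to 368 FPKM in new and 546 FPKM in original hair cells, with 2 of 11 tested members higher and 5 lower, and Hspa1a and Hspa1b at 0 in original hair cells. The share of these genes was higher, at 1506 parts per 1000000 in new and 252 in original hair cells. With equal FPKM sums the median of all tested genes was also higher, by 2.53 log2 units. The part of these cells and of dissociation in the levels of the stress response genes was not tested. In bulk samples, fewer cells of a type and less RNA per cell cannot be told apart.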

How the data were processed

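Per the labels' protocols, total RNA went into a SMART-Seq v4 kit for low input. CASAVA 1.8, Trimmomatic and TopHat with build mm10 were used, per the submitters' processing notes. Which program gave FPKM and p-values was not given in the sources used. The authors deposited 1 FPKM value per gene and group, a log2 ratio and an unadjusted p-value, per the file headers, so the 2 libraries of each group were pooled or averaged. The content of 1 row was not analysed here.

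Tested genes were the 9026 that reached 1 FPKM in either group and were above 0 in each. Differences are log2(FPKM + 1), new minus original, which understates the change of low genes. Folds of single genes are plain FPKM ratios. A call is a difference of at least 2-fold on that log2 scale. Benjamini-Hochberg adjustment of the authors' deposited p-values covered all tested genes. Limma, planned for values per library, could not be fitted. Loci starts were raised by 1, since 3119 of 6753 genes sharing their end with GENCODE began 1 base lower. Promoter windows were RefSeq's, matched to all 10 genes. Scaling and motif search were tested on simulated data. The genes and lists were chosen with earlier results of these data known. Named list genes were the pair of highest mean, the largest rise and the largest fall per list, plus 20 fixed genes. The result of 1 such gene is not reported here. Others (Psph, Mars, locus neighbours, markers) were named after their values were seen. As alternatives, 3 scalings (trimmed mean, quantile, equal sums), a minimum of 5 FPKM or none, a pseudocount of 0.1, ranking among tested genes only and removal of rows with a shared locus were tried. Python 3.11.15, numpy 2.4.6, pandas 2.3.3 and matplotlib 3.10.9 were used.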

Additional observations from a re-analysis of the deposited data

How the results depend on the processing

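No paired analysis was possible because the table holds 1 value per gene and group, and for the same reason no library could be left out. Among the 10 stress response genes, 4 were at least 2-fold lower in new hair cells and none higher, and these counts moved to 2 lower with quantile normalization, and to 2 lower and 3 higher with equal FPKM sums. Over the 10 lists, 51 lower and 18 higher moved to 31 lower and 40 higher with quantile normalization, and to 17 lower and 89 higher with equal sums. The shares of all tested genes called under these 2 scalings are not given here, so the moved counts are no result about the genes or lists. The 4 counts as deposited held within 1.5 times with trimmed-mean scaling, a pseudocount of 0.1, a minimum of 5 FPKM or none, and without rows that share a locus. Of the 34 named and member genes below 0 as deposited, 13 turned above 0 with equal sums and 9 with quantile normalization. Among those at least 2-fold lower as deposited, with equal sums the log2 difference turned to 1.79 in Cebpb, 0.71 in Atf3, 1.85 in Dnajc3, 1.41 in Eif2s3x, 0.97 in Jun, 2.04 in Map1lc3b, 1.67 in Psat1 and 0.11 in Sqstm1, and of smaller differences, to 2.74 in Asns, 1.01 in Eif2ak3, 2.62 in Gapdh, 2.36 in Ppp1r15a and 2.71 in Xbp1. With quantile normalization it turned to 0.069 in Dnajc3, 0.40 in Jun, 1.92 in Map1lc3b, 1.27 in Psat1 and 0.0037 in Ptma, and to 0.86 in Asns, 2.80 in Gapdh, 0.38 in Ppp1r15a and 0.22 in Xbp1. Of the 9 list medians below 0 as deposited, equal sums turned 8 (mitochondrial stress 1.76, kinases and phosphatase regulators 2.36, bZIP 2.46, synthesis 1.83, synthetases 2.24, stress and autophagy 2.58, reticulum 2.63, Nupr1 relatives 2.31). Quantile normalization turned 5 (0.33 for the kinases, 0.04 for bZIP, 0.46 for stress and autophagy, 0.76 for the reticulum, 0.98 for Nupr1 relatives). These scalings raise the median of all tested genes to 2.53 and 0.28. Ranked among tested genes only, percentiles in new and original hair cells were 95.9 and 97.1 for Atf4, 28.2 and 99.0 for Nupr1, 63.8 and 50.8 for Ddit3, 73.8 and 65.6 for Asns, 8.48 and 69.4 for Ddit4, and 52.2 and 60.6 for Cebpb, since low genes leave the ranking. Depth is unknown, so the precision of values under 1 FPKM cannot be given.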
